A study of Mus musculus with 12 samples.

Results

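The 10 genes described here are feedback genes of cytokine signalling: Cish, Socs1 to Socs7, Pim1 and Pim2. They were found by symbol, as 10 of the 55376 genes in the deposited table of read counts, and all 10 were among the 11994 genes that passed the filter on low counts. The 12 libraries come from mouse bone marrow cells labelled as progenitors (c-Kit+/Sca-1+/Lin-), whose RPMI medium held 20 ng/ml of IL-3, 20 ng/ml of IL-6 and 100 ng/ml of SCF. All cells took up a retroviral MSCV construct and were compared in 4 groups of 3 libraries: MSCV without an insert and sh#ctrl, NUP98-NSD1 and sh#ctrl, NUP98-NSD1 and sh#1, and NUP98-NSD1 and sh#2. NUP98-NSD1 is a leukaemia fusion of a nucleoporin with a histone methyltransferase, here driven by a viral vector under geneticin selection. The shRNAs sh#1 and sh#2 target Nizp1, which the file lists as Zkscan17, and were delivered in pLKO.1-puro vectors. The labels do not name mice, strain, age or the time of harvest. By the series title, the question is whether Nizp1 acts together with the fusion.

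Cytokine receptors of the IL-3 and IL-6 type signal through JAK kinases and STAT transcription factors, and STATs switch on genes that limit the same signal. Cish and the Socs genes encode adaptors with an SH2 domain, which docks on phosphorylated receptors or kinases, and a SOCS box, which binds elongins and the ubiquitin ligase scaffold Cul5. Cish and Socs2 are classic STAT5 targets downstream of IL-3, Socs1 blocks JAK catalytic activity and responds to interferons, and Socs3 is induced by STAT3 and binds the IL-6 receptor subunit gp130. Pim1 and Pim2 are serine/threonine kinases that are active once made, so that their transcription largely sets their activity, and they favour survival and growth of blood cells.

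Library totals ran from 3586538 to 6842589 counts, so that 3 counts correspond to 0.417 to 0.837 CPM (counts scaled to library size with the TMM method of edgeR), and members had between 10 and 3836 counts in a library. Intervals of ratios given below cover counting error only, because each ratio sets a single library against a single library. Spread between libraries is not in them. Reads carry no molecular identifiers, so the counting error itself may be understated. Libraries that share a replicate number resembled each other across all genes and are called experiment 1, 2 or 3, which is an inference from the data. Zkscan17 was at 57.9 ± 7.42 CPM (SD, n = 3) in fusion cells with sh#ctrl, at 30.5 ± 4.37 with sh#1 and at 24.5 ± 6.08 with sh#2. The blocked edgeR fit called it lower with both (log2 fold change -0.93, adjusted p = 0.00198, and -1.25, adjusted p = 0.00029), and the unblocked edgeR fit with neither, while DESeq2 without the block called it lower with both (adjusted p = 0.00414 and 5.3e-06). Hoxa9, a known target of NUP98 fusions, lay between 0.176 and 0.746 CPM in the MSCV libraries and between 4.19 and 69.7 CPM in the 9 fusion libraries. The progenitor label held in part: Kit had a median of 2610 CPM and Cd34 of 1380 CPM, but the mast cell protease gene Cpa3 had a median of 22900 CPM, and Flt3 had a count in only 8 of 12 libraries. In bulk RNA, fewer cells of a type and less RNA per cell cannot be told apart. The labels do not say whether libraries came from separate cultures or mice, so p-values speak only of the spread among the libraries, which may be technical.

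Pim1 and Cish were the most abundant feedback transcripts, and Socs7 and Socs6 the least. These ranks are on the TPM scale, computed from the counts and the exon length in the file, which corrects for length and so allows genes to be compared. Mean levels over 12 libraries were 305 TPM for Pim1 (SD 106), 201 for Cish (SD 71.1), 108 for Socs2 (SD 54.7), 87.8 for Pim2 (SD 33.6) and 74.2 for Socs1 (SD 29.1). The other 5 were lower, at 28.3 TPM for Socs4 (SD 3.83), 18.6 for Socs5 (SD 4.18), 15.2 for Socs3 (SD 15.8), 12.6 for Socs7 (SD 1.73) and 8.44 for Socs6 (SD 2.09). Pim1 lay above Cish, and Cish above Socs2, within each of the 12 libraries, although their ranges over libraries overlapped. The ranges of the neighbours Socs1 and Socs4 did not overlap. Socs3, although lower on average, reached 58.2 TPM, above the lowest values of Socs2 (34.1), Socs1 (41.4) and Pim2 (42.3). Neighbours with no firm order were Socs2 and Pim2, with Socs2 higher in 8 of 12 libraries, Pim2 and Socs1 (9 of 12), Socs5 and Socs3 (8 of 12) and Socs3 and Socs7 (5 of 12). Socs3 had the widest spread relative to its mean, from 1.83 to 58.2 TPM.

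Promoter sequences are shown for Cish and Socs3, because these members held the STAT motif TTCNNNGAA in the RefSeq window from 250 bases before to 50 bases after the start of the gene (GRCm38.p6). Windows were found for 6 of the 10 members: Cish, Socs1, Socs3, Socs4, Pim1 and Pim2. The stretches below run 5′ to 3′ along the gene, from 250 bases before to 20 bases after the start, with the motif in capitals. That of Cish is on the plus strand at chr9:107296409-107296678 and that of Socs3 on the minus strand at chr11:117969347-117969616.
Cish: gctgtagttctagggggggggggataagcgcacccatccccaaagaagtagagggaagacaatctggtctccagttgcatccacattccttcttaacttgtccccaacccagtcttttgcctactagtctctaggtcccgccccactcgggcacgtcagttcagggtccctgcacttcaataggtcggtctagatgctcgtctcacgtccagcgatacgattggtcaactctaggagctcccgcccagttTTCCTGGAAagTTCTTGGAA
Socs3: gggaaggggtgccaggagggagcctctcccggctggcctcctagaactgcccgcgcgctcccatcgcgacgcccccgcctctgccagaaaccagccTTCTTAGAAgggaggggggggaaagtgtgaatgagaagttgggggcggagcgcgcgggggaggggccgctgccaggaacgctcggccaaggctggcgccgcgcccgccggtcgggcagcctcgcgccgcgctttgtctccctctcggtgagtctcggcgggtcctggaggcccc
The motif reads the same on both strands, so a single search covers both. Cish held TTCCTGGAA and TTCTTGGAA, which begin at +1 and +12 from the RefSeq start, and Socs3 held TTCTTAGAA, which begins at -154. Of 32851 RefSeq windows of this length, 8.30% held at least 1 match and 0.457% held 2 or more. The motif with 4 free bases, TTCNNNNGAA, was in none of the 6 members' windows and in 6.95% of all windows. The gene model in the counts file starts at base 107296026 of chromosome 9, upstream of the RefSeq start of Cish at 107296659. That of Socs3, on the minus strand, starts at base 117969186 of chromosome 11, downstream of the RefSeq start at 117969366. Both starts of the file lie outside the windows searched, so the motif positions hold for the RefSeq starts only. Matches are letters in a window and say nothing of binding. In experiment 3, the members with a match stood at 45.2% (Cish) and 20.6% (Socs3) of their level in the other experiments, and those whose windows held none at 43.1% (Pim2), 53.4% (Pim1), 58.7% (Socs1) and 94.5% (Socs4). Socs2, for which no window was used, stood at 25.0%. The part of the motif in these levels was not tested.

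Most of the variation of the members followed the experiment and not the vector or the shRNA. The replicate number accounted for 83.1% of the variance of log2(CPM + 1) of the median member, against 48.7% for the median of all 11994 tested genes, and 7 of the 10 members lay above that all-gene value. The group accounted for 6.88% in the median member and 20.6% in the median gene. Socs2 stood at one end, with 97.2% of its variance between replicate numbers and 0.44% between groups. At the other end were Socs5, with 9.37% between replicate numbers and 46.8% between groups, and Socs4, with 21.6% and 38.8%. These shares are a description and carry no test.

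**Figure D1:**
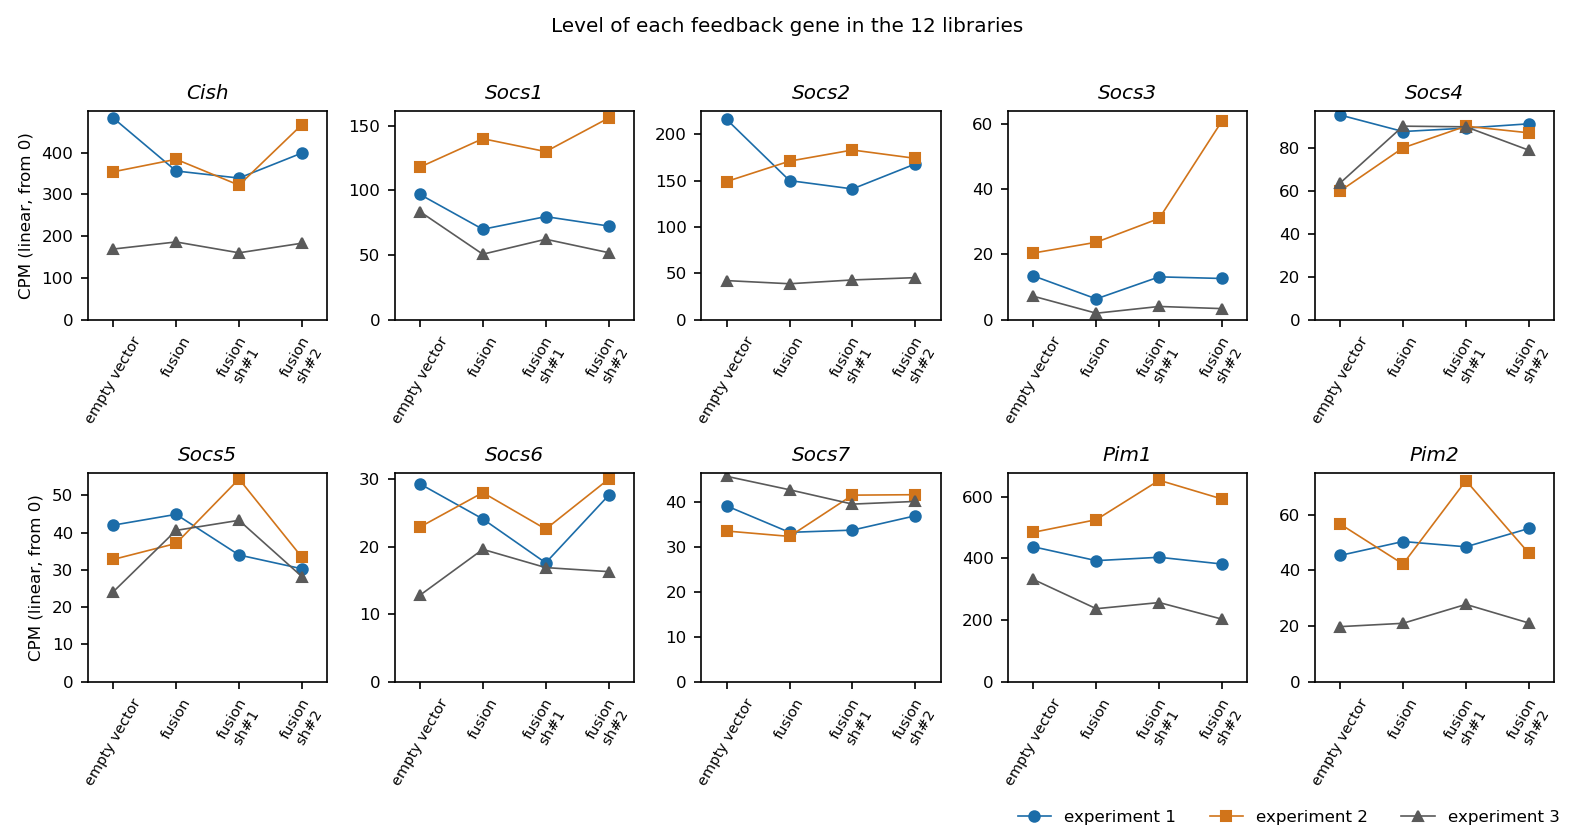
Level of each of the 10 genes in CPM (linear axis from 0) in the 12 libraries. Each panel is 1 gene, the x axis gives the 4 groups (empty vector is MSCV, fusion is NUP98-NSD1, both with sh#ctrl), and lines join the 4 libraries of an experiment. The grey triangles of experiment 3 lie under all other points for Cish, Socs2, Pim1 and Pim2.

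**Figure D2:**
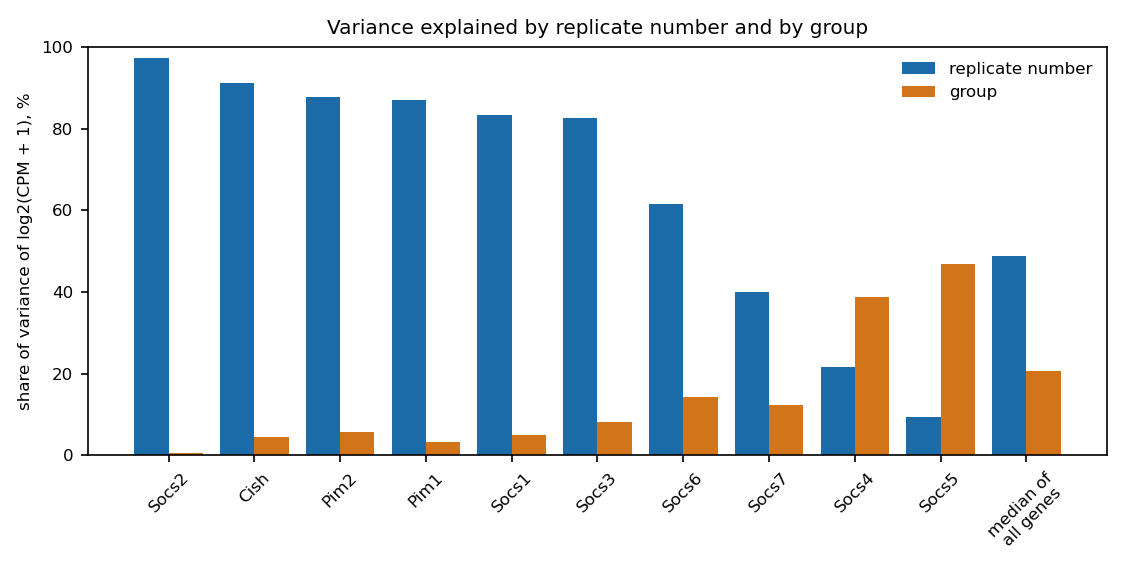
Share of the variance of log2(CPM + 1) in percent, over 12 libraries, that lies between replicate numbers (blue) and between groups (orange) for each gene and for the median of all tested genes. The blue bar reaches 97.2% for Socs2 and 9.37% for Socs5.

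No member was found to change with the fusion beyond the spread between libraries, which was wide for some of them. None of the 10 was called by the quasi-likelihood test of edgeR at a Benjamini-Hochberg adjusted p under 0.05, where 0.00834% of all tested genes were called. That fit also left Hoxa9 uncalled, at a log2 fold change of 6.35 (SE 1.53), so it can miss large changes. The blocked edgeR fit called Hoxa9 (6.42, SE 0.5, adjusted p = 0.000242). No member was called once the replicate number entered the model as a block either, where 0.275% of genes were. None had an unadjusted p under 0.05 (2.67% of genes without the block and 11.0% with it), and DESeq2 called none with or without the block. With the block, log2 fold changes ran from -0.73 to 0.31 with a median of -0.10, and 7 of 10 were below 0.

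Socs3 had the lowest value in that comparison. In the order of experiments 1, 2 and 3, MSCV libraries held 13.4, 20.4 and 7.17 CPM and fusion libraries 6.35, 23.7 and 1.96 CPM. The fusion library was therefore lower in 2 of the 3 experiments, and the groups overlapped. The ratio within an experiment was 0.473 (95% exact interval 0.298 to 0.735) in experiment 1, 1.16 (0.872 to 1.55) in experiment 2 and 0.274 (0.120 to 0.569) in experiment 3. The blocked log2 fold change was -0.73 (SE 0.42, adjusted p = 0.564 with edgeR). Socs1, at 99.6 ± 17.6 CPM with MSCV and 86.7 ± 46.8 with the fusion (SD, n = 3), had -0.32 (SE 0.17, adjusted p = 0.517 with edgeR). The 20 interferon-stimulated genes listed had a blocked median of 1.15 with the fusion and none was called. Their summed level was 474, 1110 and 506 CPM in the MSCV libraries and 491, 2710 and 455 CPM in the fusion libraries, so that experiment 2 carried the difference. Socs4 and Socs5, whose products have been linked to EGF receptor turnover, had 0.25 (SE 0.13, adjusted p = 0.499) and 0.31 (SE 0.19, adjusted p = 0.573).

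Neither shRNA changed a member past the threshold. With sh#1, no member was called without the block (0% of all genes were called) or with it (1.63% of genes). With sh#2, no member was called without the block (0.00834% of genes) or with it (0.217%). The count at an unadjusted p under 0.05 was 0 without the block for both (4.0% of genes for sh#1 and 2.38% for sh#2). With the block it was 1 for sh#1, Pim2 (12.3% of genes), and 2 for sh#2, Socs3 and Socs5 (11.1% of genes). DESeq2 called no member in either comparison, blocked or not, though without the block it gave Socs3 no adjusted p with sh#1. Both comparisons use the same 3 control libraries. The median blocked log2 fold change of the members was 0.09 in each.

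Socs3, the STAT3-induced inhibitor of gp130 signalling, passed the threshold with neither shRNA. Its 3 libraries with sh#1 held 13.1, 31.0 and 4.03 CPM and those with sh#2 held 12.6, 60.9 and 3.37 CPM, beside the fusion controls of 6.35, 23.7 and 1.96 CPM. The highest value of each group was that of experiment 2 and the lowest that of experiment 3, so all groups overlapped. Within experiments the ratio to the control was 2.06, 1.31 and 2.05 with sh#1 and 1.98, 2.57 and 1.72 with sh#2. The 2 ratios of experiment 3 rest on 29, 23 and 10 counts, and their intervals reach under 1 (0.972 to 4.72 and 0.787 to 4.05). All 3 ratios were above 1 in each comparison, as for 17.2% of tested genes with sh#1 and 20.0% with sh#2. The comparisons share their controls, so they are not independent of each other. The blocked log2 fold change was 0.70 with sh#1 (SE 0.41, 95% interval -0.22 to 1.62, edgeR adjusted p = 0.561) and 1.11 with sh#2 (SE 0.39, interval 0.24 to 1.98, adjusted p = 0.325). The shRNAs differed from each other by 0.41 (SE 0.37, edgeR adjusted p = 0.689). Without the sh#2 library of experiment 2, the blocked value for sh#2 fell to 0.50 (adjusted p = 0.931). The 13 immediate early genes listed, such as Fos and Egr2, had a blocked median of 0.38 with sh#1 and 0.58 with sh#2, with none called, and the median of all tested genes was 0. Their part in the Socs3 values was not tested.

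Among the fusion groups, Socs5 had its lowest levels with sh#2, though the single lowest library was an MSCV one. Fusion control libraries held 44.9, 37.1 and 40.6 CPM in experiments 1 to 3, sh#1 libraries 34.0, 54.4 and 43.3, and sh#2 libraries 30.3, 33.4 and 28.2. All 3 sh#2 libraries lay below all 3 control and all 3 sh#1 libraries, which 6.52% and 9.20% of tested genes also showed in one direction or the other. The log2 fold change of sh#2 against the control was -0.42 both without the block (SE 0.22, edgeR adjusted p = 1.0) and with it (SE 0.19, adjusted p = 0.431). The sh#2 libraries were not separated from the MSCV libraries, which held 42.0, 32.8 and 24.1 CPM.

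Cish and Socs6 were lower with sh#1 than with the control in all 3 experiments, a pattern that 18.1% of tested genes had. Cish held 356, 384 and 186 CPM with the control and 339, 322 and 160 CPM with sh#1, a blocked log2 fold change of -0.18 (SE 0.12, edgeR adjusted p = 0.603). Socs6, which has been tied to KIT turnover, had -0.30 (SE 0.19, edgeR adjusted p = 0.581). Pim2 gave 50.4, 42.3 and 21.0 CPM with the control and 48.5, 72.3 and 27.8 CPM with sh#1, with a blocked log2 fold change of 0.38 (SE 0.16, edgeR adjusted p = 0.317). Pim2 was thus higher with sh#1 in experiments 2 and 3 and not in experiment 1. Pim1 was higher with sh#1 in all 3 experiments (17.2% of genes), at 404, 654 and 257 CPM against 393, 526 and 237 CPM, a blocked 0.16 (SE 0.14, edgeR adjusted p = 0.737).

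Between the 2 shRNAs, again no member was called, where 0.00834% of genes were called without the block and 2.37% with it. The member with an unadjusted p under 0.05 without the block was Socs5 (5.08% of genes), and with the block these were Socs5 and Cish (14.8% of genes). DESeq2 called none, blocked or not. Socs5 was lower with sh#2 by a blocked log2 value of -0.52 (SE 0.19, 95% interval -0.93 to -0.12, edgeR adjusted p = 0.191). Cish was higher with sh#2, at 399, 467 and 183 CPM against 339, 322 and 160 CPM, by 0.32 (SE 0.12, interval 0.07 to 0.58, edgeR adjusted p = 0.192). Pim2 had -0.29 (SE 0.15, edgeR adjusted p = 0.416). Neutrophil markers moved in the same comparisons of the blocked fit. Against the control, 5 of 8 were called lower with sh#1, as were 134 of 11994 tested genes. Against sh#1, 5 of 8 were called higher with sh#2, as were 214 of 11994 tested genes. The summed level of the 8 markers was 441, 1540 and 3.34 CPM in the control libraries, 199, 838 and 10.3 CPM with sh#1 and 340, 1560 and 9.39 CPM with sh#2. The ratio of Cish with sh#1 to the control was 0.953, 0.839 and 0.863 in experiments 1, 2 and 3, each from single libraries. The 95% exact intervals, for counting error only, were 0.887 to 1.02, 0.78 to 0.902 and 0.791 to 0.942. The part of these markers in the Cish values was not tested.

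**Figure D3:**
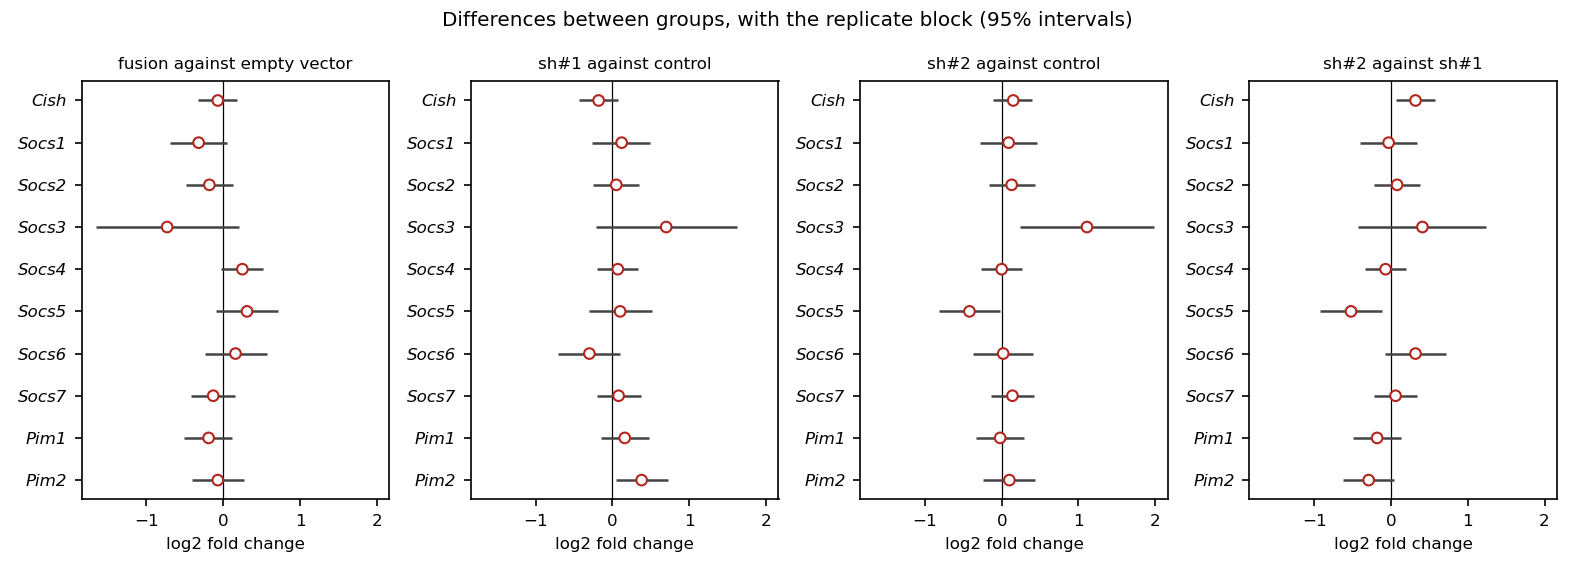
Log2 fold changes (points) with 95% intervals (lines) of the 10 genes in the 4 comparisons between groups, from the blocked edgeR fit. All points are open because no gene was called, and the interval of Socs3 is the widest in each panel.

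Among the other genes of the pathway, few were called between groups. In the blocked fit, 0.275% of all tested genes were called with the fusion, 0.217% with sh#2, 1.63% with sh#1 and 2.37% between the shRNAs. For the fusion and for sh#2, none of 13 measured cytokine receptor genes, 11 JAK and STAT genes or 18 other negative regulators was called. Nor was any of 6 SOCS-box partners or 18 other STAT target genes. With sh#1, Csf2ra, the GM-CSF receptor alpha chain, fell from 40.7 ± 20.1 to 22.2 ± 9.78 CPM (SD, n = 3; log2 fold change -0.83, SE 0.17, edgeR adjusted p = 0.0218). Ptpn6, which encodes the phosphatase SHP-1, fell from 300 ± 21.8 to 211 ± 27.3 CPM (-0.51, SE 0.09, edgeR adjusted p = 0.0136). Spred1, an inhibitor of RAS signalling, was higher with sh#2 than with sh#1, at 383 ± 43.6 against 269 ± 52.6 CPM (0.52, SE 0.11, edgeR adjusted p = 0.0191). Without the block edgeR called none of the 3 and DESeq2 called Ptpn6, just under the threshold, and with the block in edgeR each kept its call in 1 of 6 fits that left out a single library of the groups compared. The blocked adjusted p then ran up to 0.132 for Csf2ra, 0.0906 for Ptpn6 and 0.121 for Spred1.

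The experiments differed far more than the groups. This comparison was chosen after the values had been seen, and it sets 4 libraries of a single experiment against 8 of 2 others, so that its p-values are too small as a statement about experiments in general. In experiment 3, 7 of the 10 members were called lower than in experiments 1 and 2, where 23.2% of all tested genes were called lower, 20.8% higher and 44.0% in either direction. The median log2 fold change of the members was -0.84, against 0.01 for all tested genes. The 7 were Cish, Socs1, Socs2, Socs3, Socs6, Pim1 and Pim2. Socs4, Socs5 and Socs7 were not called. All 7 calls held in each of 16 fits, among them DESeq2, RLE scaling, no filter on low counts and leaving out each library in turn.

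Of the 2 members named above as STAT5 targets, Socs2 showed a larger gap between libraries than Cish. Its 4 libraries of experiment 1 held 216, 150, 141 and 168 CPM, those of experiment 2 held 149, 171, 183 and 174 CPM, and those of experiment 3 held 42.1, 38.7, 42.8 and 45.3 CPM, in the order MSCV, fusion control, sh#1 and sh#2. All of experiment 3 lay below the other 8 libraries, and experiments 1 and 2 overlapped. The log2 fold change of experiment 3 was -2.0 (SE 0.11, edgeR adjusted p = 6.25e-08), which leaves 25.0% of the level in the other experiments.

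Cish had the same order on a smaller scale. It held 483, 356, 339 and 399 CPM in experiment 1 and 354, 384, 322 and 467 CPM in experiment 2, but 169, 186, 160 and 183 CPM in experiment 3. Its level in experiment 3 was 45.2% of that in the other experiments (log2 fold change -1.15, SE 0.09, edgeR adjusted p = 8.21e-07). The kinase gene Pim2 also fell, from 49.8 ± 4.08 and 54.4 ± 13.4 CPM in experiments 1 and 2 to 22.4 ± 3.63 CPM in experiment 3 (SD, n = 4; -1.21, SE 0.12, edgeR adjusted p = 6.40e-06). Pim1 had 404 ± 24.4, 564 ± 74.4 and 257 ± 54.7 CPM in experiments 1, 2 and 3 (SD, n = 4; -0.91, SE 0.11, edgeR adjusted p = 7.79e-05). For Cish, Socs2, Pim1 and Pim2 no library of experiment 3 reached any of the other 8, and 9.20% of tested genes were separated in this way and direction. Pim3, the family member outside the set, was lower by -0.36 (SE 0.09, edgeR adjusted p = 0.00505), with overlapping libraries.

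Socs3 and Socs1, the members most tied to IL-6 and interferon signals, had their highest levels in experiment 2. Socs3 had 13.4, 6.35, 13.1 and 12.6 CPM in experiment 1, 20.4, 23.7, 31.0 and 60.9 CPM in experiment 2, and 7.17, 1.96, 4.03 and 3.37 CPM in experiment 3. Experiment 2 was above all others, and the MSCV library of experiment 3 was above the fusion control of experiment 1, so that experiments 1 and 3 overlapped. By the fitted contrast, experiment 3 stood at 20.6% of the level of the others, averaged on the log2 scale (log2 fold change -2.28, SE 0.34, edgeR adjusted p = 0.000518). Socs1 held 79.7 ± 12.2, 136 ± 15.8 and 62.1 ± 15.3 CPM in experiments 1, 2 and 3 (SD, n = 4; -0.77, SE 0.13, edgeR adjusted p = 0.000826), with experiments 1 and 3 overlapping. Socs6 had the smallest called change, from 24.6 ± 5.16 and 25.9 ± 3.69 to 16.4 ± 2.80 CPM (-0.61, SE 0.14, edgeR adjusted p = 0.00383).

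The uncalled members were nearly level across experiments. Socs4 had 90.8 ± 3.33, 79.3 ± 13.6 and 80.6 ± 12.5 CPM (SD, n = 4; log2 fold change of experiment 3 -0.08, 95% interval -0.28 to 0.12, edgeR adjusted p = 0.506). Socs5 had 37.8 ± 6.78, 39.4 ± 10.2 and 34.1 ± 9.36 CPM (-0.19, interval -0.50 to 0.11, adjusted p = 0.285). Socs7, whose product binds insulin receptor substrates, was the only member above 0, at 0.20 (interval -0.01 to 0.41, edgeR adjusted p = 0.108).

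Experiment 2 differed from experiment 1 in 3 members, all of them higher: Socs1 (log2 fold change 0.80, SE 0.15, edgeR adjusted p = 0.00298), Socs3 (1.57, SE 0.32, adjusted p = 0.00659) and Pim1 (0.49, SE 0.13, adjusted p = 0.0147). Of all tested genes, 13.4% were called higher, 12.6% lower and 25.9% in either direction. All 4 libraries of experiment 2 lay above those of experiment 1 for each of the 3 genes, as 12.2% of tested genes did. Cish and Socs2, which were lower in experiment 3, had -0.05 (SE 0.10, 95% interval -0.27 to 0.17) and 0.01 (SE 0.12, interval -0.24 to 0.26) between experiments 2 and 1. The call of Pim1 was lost without the experiment 1 or the experiment 2 library of sh#1 or of sh#2, with edgeR adjusted p between 0.052 and 0.0556, while those of Socs1 and Socs3 held in 16 of 16 fits.

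**Figure D4:**
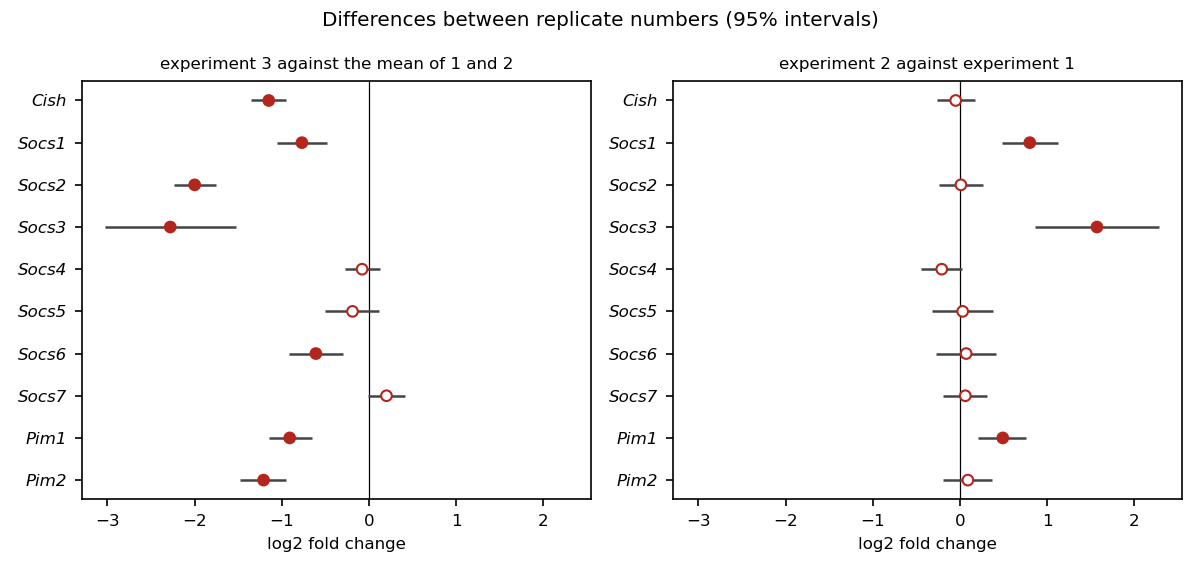
Log2 fold changes (points) with 95% intervals (lines) of the 10 genes between replicate numbers, from the edgeR fit with group and replicate number. Filled points are genes called at an adjusted p under 0.05: 7 lower in experiment 3 on the left, and Socs1, Socs3 and Pim1 higher in experiment 2 on the right.

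The other genes of the pathway differed between experiments to unequal extents. In experiment 3, 9 of 13 cytokine receptor genes were called lower and none higher, beside 23.2% lower and 20.8% higher among all tested genes. Il6ra, the IL-6 receptor alpha chain, averaged 0.794 ± 0.677 CPM in experiment 3 (SD, n = 4) and 11.4 ± 10.0 CPM in the other 8 libraries (log2 fold change -3.23, SE 0.36, edgeR adjusted p = 1.46e-05). Its partner Il6st, which encodes gp130, averaged 6.33 ± 3.44 against 44.2 ± 33.3 CPM (-2.47, SE 0.39, edgeR adjusted p = 0.00183). Csf3r, the G-CSF receptor, averaged 0.461 ± 0.554 against 16.8 ± 14.4 CPM (-4.44, SE 0.51, edgeR adjusted p = 8.81e-05). In experiment 3, Il6ra and Csf3r were thus at the level of about 3 counts (0.417 to 0.837 CPM), and their fold changes rest on few reads. Il6ra, Il6st and Csf3r were higher in experiment 2 than in experiment 1, by 2.56, 1.87 and 2.46. There, 7 of 13 receptor genes were called higher, beside 13.4% of all tested genes. The summed level of the 14 receptor genes listed was 11500 to 13400 CPM in experiment 1 and 11800 to 14000 CPM in experiment 2. In experiment 3 it was 9870 to 12000 CPM.

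Of the 11 JAK and STAT genes, 5 were called lower in experiment 3 and none higher, beside 23.2% lower and 20.8% higher among all tested genes. Counted in either direction, the share was close to the 44.0% of all tested genes. The median log2 fold change of the 11 was -0.18, against 0.01 for all tested genes. Stat5b, one of the pair of STAT5 genes, fell from 218 ± 25.3 to 155 ± 17.0 CPM (-0.49, SE 0.08, edgeR adjusted p = 0.000191). Stat6, the IL-4 pathway STAT, had -0.49 (SE 0.07). Among 18 other negative regulators, 6 were called lower, such as the ERK phosphatase gene Dusp6 (-0.83, SE 0.09) and the JAK phosphatase gene Ptpn1 (-0.50, SE 0.08), and 1 higher, Spred2 (0.42, SE 0.10), which is not more than the 44.0% of all tested genes called in either direction. Of the 6 SOCS-box partners none was called in experiment 3, and Elob and Rbx1 had 0.21 (SE 0.08) and 0.13 (SE 0.08). Elob was called in 3 of 16 fits, each without a single library (lowest edgeR adjusted p = 0.0203). In experiment 2, 2 of these 6 were called lower than in experiment 1, beside 12.6% of all tested genes. Eloc had -0.60 (SE 0.09) and was called in 16 of 16 fits. Rnf7 had -0.25 (SE 0.08) and was called in 3 of 16.

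Of 18 other STAT target genes, 11 were called lower in experiment 3 and 1 higher, beside 23.2% and 20.8% of all tested genes. Id1, an inhibitor of helix-loop-helix factors, had -3.27 (SE 0.27), and Junb, an AP-1 subunit, averaged 124 ± 16.9 against 728 ± 583 CPM (-2.03, SE 0.22). All 13 immediate early genes were called lower in experiment 3, with a median of -2.99, and 10 of 13 were higher in experiment 2 than in experiment 1, with Fos at 635 ± 320 against 18.3 ± 2.75 CPM (SD, n = 4). Of 20 interferon-stimulated genes, 16 were called lower in experiment 3 and 13 higher in experiment 2 than in experiment 1, where 13.4% of all tested genes were called higher. Their summed level was 474 to 880 CPM in experiment 1, 1080 to 2710 CPM in experiment 2 and 455 to 506 CPM in experiment 3, against a summed level of the 10 members of 1200 to 1500, 1330 to 1690 and 671 to 801 CPM.

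Markers of other cell types also followed the experiments. Of all tested genes, 23.2% were called lower in experiment 3 and 20.8% higher. All 8 neutrophil markers were called lower in experiment 3, with a summed level of 2.82 to 10.3 CPM there, 199 to 441 CPM in experiment 1 and 838 to 1590 CPM in experiment 2, and the defining markers Ltf and Camp were at 0 in all of experiment 3. Of 8 monocyte and macrophage markers, 7 were called lower, with summed levels of 94.7 to 1190 CPM in experiment 3, 861 to 1590 CPM in experiment 1 and 2180 to 3890 CPM in experiment 2. Of 8 mast cell markers 5 were called lower, with 37800 to 44000 CPM in experiment 3 and 43600 to 61100 CPM in the other experiments. Of 4 measured eosinophil markers, 3 were called lower and 1 higher in experiment 3, with summed levels of 4.34 to 11.2 CPM there and 14.5 to 183 CPM in the other experiments. Of 5 megakaryocyte markers, 4 were called lower (median over the 5 of -1.25 on the log2 scale), with summed levels of 1530 to 2130 CPM in experiment 3 and 1860 to 2400 CPM in the others. The 1 erythroid marker measured was not called. Of 7 measured stem and progenitor markers, 4 were called higher and 2 lower in experiment 3. The part of these cell markers and of the immediate early genes in the members' levels was not tested. Between experiments 2 and 1, 7 of 8 neutrophil markers were called higher, beside 13.4% of all tested genes. Socs1, Socs3 and Pim1 were also called higher, and the other 7 members were not called.

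In the file (mm10), Cish lies on chromosome 9 at 107296026-107302784 on the plus strand, Socs2 on chromosome 10 at 95411490-95416857 on the minus strand, and Socs3 on chromosome 11 at 117966079-117969186 on the minus strand. Socs5 and Pim1 lie on chromosome 17, at 87107679-87137839 and 29490753-29496112, both on the plus strand. The antisense genes Gm17040 and Gm17041 overlap Cish with 41 and 71 counts over all libraries, beside 20018 for Cish, and Gm26885 overlaps Pim1 with 225 counts beside 25241. The strand setting of the counting is not given in the sources used here, so reads of such pairs may not have been told apart.

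The genes most like each member within experiments were found from Pearson correlations of log2(CPM + 1) over 12 libraries, after the mean of each experiment was removed, among 9786 genes with a mean of at least 5 CPM. For Socs3 the closest was Plod1 (r = 0.97), for Socs2 Rabgef1 (r = 0.94), for Cish Acsl4 (r = 0.92), for Socs5 Dock6 (r = 0.92), for Pim1 Baz2b (r = 0.95) and for Pim2 Mettl18 (r = 0.92). These are the highest of many values, given as a description over libraries that share 3 experiments.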

How the data were processed

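RNA of 12 libraries was measured by poly(A) RNA sequencing (1 µg of RNA, single 75 nt reads, per the labels' protocols). The authors deposited raw read counts, 1 whole number per gene and library, made with Trimmomatic 0.32, STAR 2.5.3a and featureCounts on mm10, per the submitters' processing notes. The sources used here do not state the strand setting, version or annotation of the counting. Positions are those of the file, and 48708 genes have the positions of GENCODE vM21.

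The members and gene lists were chosen with earlier results of these data known. edgeR 4.0.16 (R 4.3.3) was run on the 12 libraries together, modelling group means (robust quasi-likelihood test, TMM scaling, filterByExpr, 11994 genes tested, Benjamini-Hochberg adjusted p under 0.05). CPM use TMM-scaled totals of tested genes. TPM were computed from the counts and the exon lengths in the file. The 18 pairs of libraries with the same replicate number correlated in their deviations from group means (r between 0.22 and 0.88, median 0.74, other pairs -0.20), and 12 of 12 libraries were closest to one of their own number. Numbers therefore pair the samples, and blocked values are given. Contrasts between replicate numbers came from the blocked model and were added after the data were seen. The scripts were tested on simulated counts. Alternatives were DESeq2 1.42.0, RLE scaling, no filter beyond 1 count, the replicate block and leaving out libraries. Genes named are all members, Pim3, Zkscan17, Hoxa9, up to 4 called genes of a list by size of change (the 2 highest where none was called), and the closest genes by correlation. Fos, Junb and Egr2 stand in for their lists also where not called. Some genes that this rule names are not reported here.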

Additional observations from a re-analysis of the deposited data

How the results depend on the processing

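The number of members called between groups was 0 under DESeq2, RLE scaling, no filter on low counts, the replicate block and the fits without experiment 3. It became 1.0 in a single fit, with the replicate block and without the MSCV library of experiment 2, where Socs1 was called lower with the fusion (log2 fold change -0.58, adjusted p = 0.0326). The block changed no call of a member in the 4 comparisons, but in edgeR it changed those of Zkscan17, Hoxa9, Csf2ra, Ptpn6 and Spred1 (DESeq2 called Zkscan17, Hoxa9 and Ptpn6 also without it), and in edgeR moved the count of called genes from 1 to 33 with the fusion, 0 to 195 with sh#1, 1 to 26 with sh#2 and 1 to 284 between the shRNAs. For uncalled members, leaving out a single library without the block could turn the sign: Socs1 ran from -0.73 to 0.07 and Socs3 from -1.72 to 0.14 with the fusion. With sh#1, Cish ran from -0.43 to 0.10, Socs3 from -0.35 to 1.93 and Pim1 from -0.22 to 0.47. Socs3 with sh#2 ran from -0.44 to 2.63, and Pim2 between the shRNAs from -0.56 to 0.10. Between experiments 2 and 1, the ranges were -0.11 to 0.10 for Cish, -0.06 to 0.20 for Socs2, -0.12 to 0.22 for Socs5, -0.02 to 0.26 for Socs6, -0.02 to 0.18 for Socs7 and -0.01 to 0.21 for Pim2. The cause was not tested. The 7 calls of members in experiment 3 held in 16 of 16 fits, and between experiments 2 and 1 the count was 3 in 12 fits and 2 in 4. Depth limits Socs3 most, with 10 counts in its lowest library.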
